A study of Zea mays with 24 samples.

Results

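The structural genes of flavonoid and anthocyanin synthesis were followed in maize seedlings of 3 cytolines kept without stress or exposed to heat. The set holds 9 of the 107027 gene IDs on the array and is given by gene ID, in a rule that uses no measured value: c2 (GRMZM2G422750), whp1 (GRMZM2G151227), chi1 (GRMZM2G155329), fht1 (GRMZM2G062396), pr1 (GRMZM2G025832), a1 (GRMZM2G026930), a2 (GRMZM2G345717), bz1 (GRMZM2G165390) and bz2 (GRMZM2G016241). All 9 were on the array, with 17 probes on 23 spots. RefSeq gave the same symbol for 8 of these IDs, and the name pr1 comes with the gene set and not from RefSeq. The array uses an older maize annotation than the reference table, so genome positions were not used here.

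Flavonoid synthesis starts when chalcone synthase joins an activated phenylpropanoid to malonyl units, and chalcone isomerase closes the ring. The flavanones that result are hydroxylated to dihydroflavonols. From these a reductase, a dioxygenase, a glucosyltransferase and a vacuolar transfer step make anthocyanins, the red and purple pigments of maize kernels and seedlings. The same early enzymes also feed flavones such as maysin, the insect-deterrent compound of maize silks. In maize the anthocyanin genes are switched on together by an R2R3-MYB protein (C1 or PL1), a bHLH protein of the R or B family and the WD40 protein PAC1, while the MYB protein P1 switches on a smaller set of the early genes and needs no bHLH partner.

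The 6 groups were seedlings of cytTC221 after heat and without stress, of cytTC248 after heat and without stress, and of TC243 after heat and without stress, with 4 replicates in each group and 1 array per replicate. TC243 is an inbred line and the nucleus donor, and cytTC221 and cytTC248 carry its nucleus, through repeated backcrossing with TC243 as the pollen parent, in the cytoplasm of the inbred lines TC221 and T248 (the labels write cytTC248 where the study's text writes cytT248). Stretches of the donor nucleus that backcrossing left behind cannot be told apart from the cytoplasm in this design. All seedlings were at the 3-leaf stage and 21 days old, with light for 16 h a day at 26 °C and nights of 8 h at 20 °C, and the heat groups spent the last 24 h at 40 °C in the same light regime. Leaves and stems were harvested together. The replicates are called biological, the study's methods give 3 seedlings harvested per line, and how plants and replicates relate is not given, so that p-values measure only the spread between these samples.

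Values are the deposited log2 signals, in which each array has its median near 6.51, the local background was not subtracted, and the arrays had been quantile-normalized within each line but not between lines. Fold values are therefore compressed for dim genes, and every comparison between lines sets separately normalized tables side by side. The scanner software's flag put 36.9% to 43.1% of an array's spots well above background, and the median signal was 4.01 to 5.85 times the local background. The test was limma over all 24 arrays. It took in the 48262 genes with a probe that carried this flag on every array of some group, and a call needs an adjusted p (Benjamini-Hochberg) below 0.01. The 5 heat shock protein genes looked at as a check rose in all 3 lines, by 2.88 to 9.54 on the log2 scale. Leaf genes, also looked at as a check, fell in most cases: 8 of 10 in cytTC221, 8 of 10 in cytTC248 and 9 of 10 in TC243. Over all genes tested 38.7%, 38.1% and 38.3% fell in these lines. Against this, me3 rose by 1.76, 1.87 and 1.40 in the same lines, and ssu1 rose by 0.56 in cytTC221. The log2 of the summed signal of these 10 leaf genes was 14.61 to 14.78 in heated and 18.12 to 18.21 in control cytTC221, 14.62 to 14.71 in heated and 18.15 to 18.32 in control cytTC248, and 14.55 to 14.85 in heated and 18.27 to 18.35 in control TC243. Such a sum mainly follows the brightest of the 10 genes. Tissues were pooled within a sample, so that fewer cells of a type and less RNA per cell cannot be told apart, and whether the fall of the leaf genes has a part in the results below was not tested.

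Heat lowered the transcript signal of c2, a gene of the first enzyme, and of pr1, the gene of flavonoid 3′-hydroxylase, in all 3 lines. c2, pr1 and bz1 fell, chi1 rose, and bz2 passed the test, as a rise, in cytTC221 and not in the other lines. Of the 9 genes, 5 were bright enough to be tested (c2, chi1, pr1, bz1 and bz2), and whp1, fht1, a1 and a2 were not. Down-regulated by heat were 3 of the 5 in each line (c2, pr1 and bz1), against 38.7% of all genes tested in cytTC221, 38.1% in cytTC248 and 38.3% in TC243. Of these genes pr1 entered the test only through control groups, so that a fall was its likely outcome and the count is a description. Up-regulated were chi1 and bz2 in cytTC221, against 36.2% of all genes tested, chi1 in cytTC248, against 41.7%, and chi1 in TC243, against 41.9%. Over the array as a whole 31.4% of the genes fell in all 3 lines and 29.8% rose in all 3, so that counts of this size are common there. In size, the response of c2 was below that of all but 6.93% of the genes tested in cytTC221, 9.13% in cytTC248 and 3.50% in TC243.

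**Figure D1:**
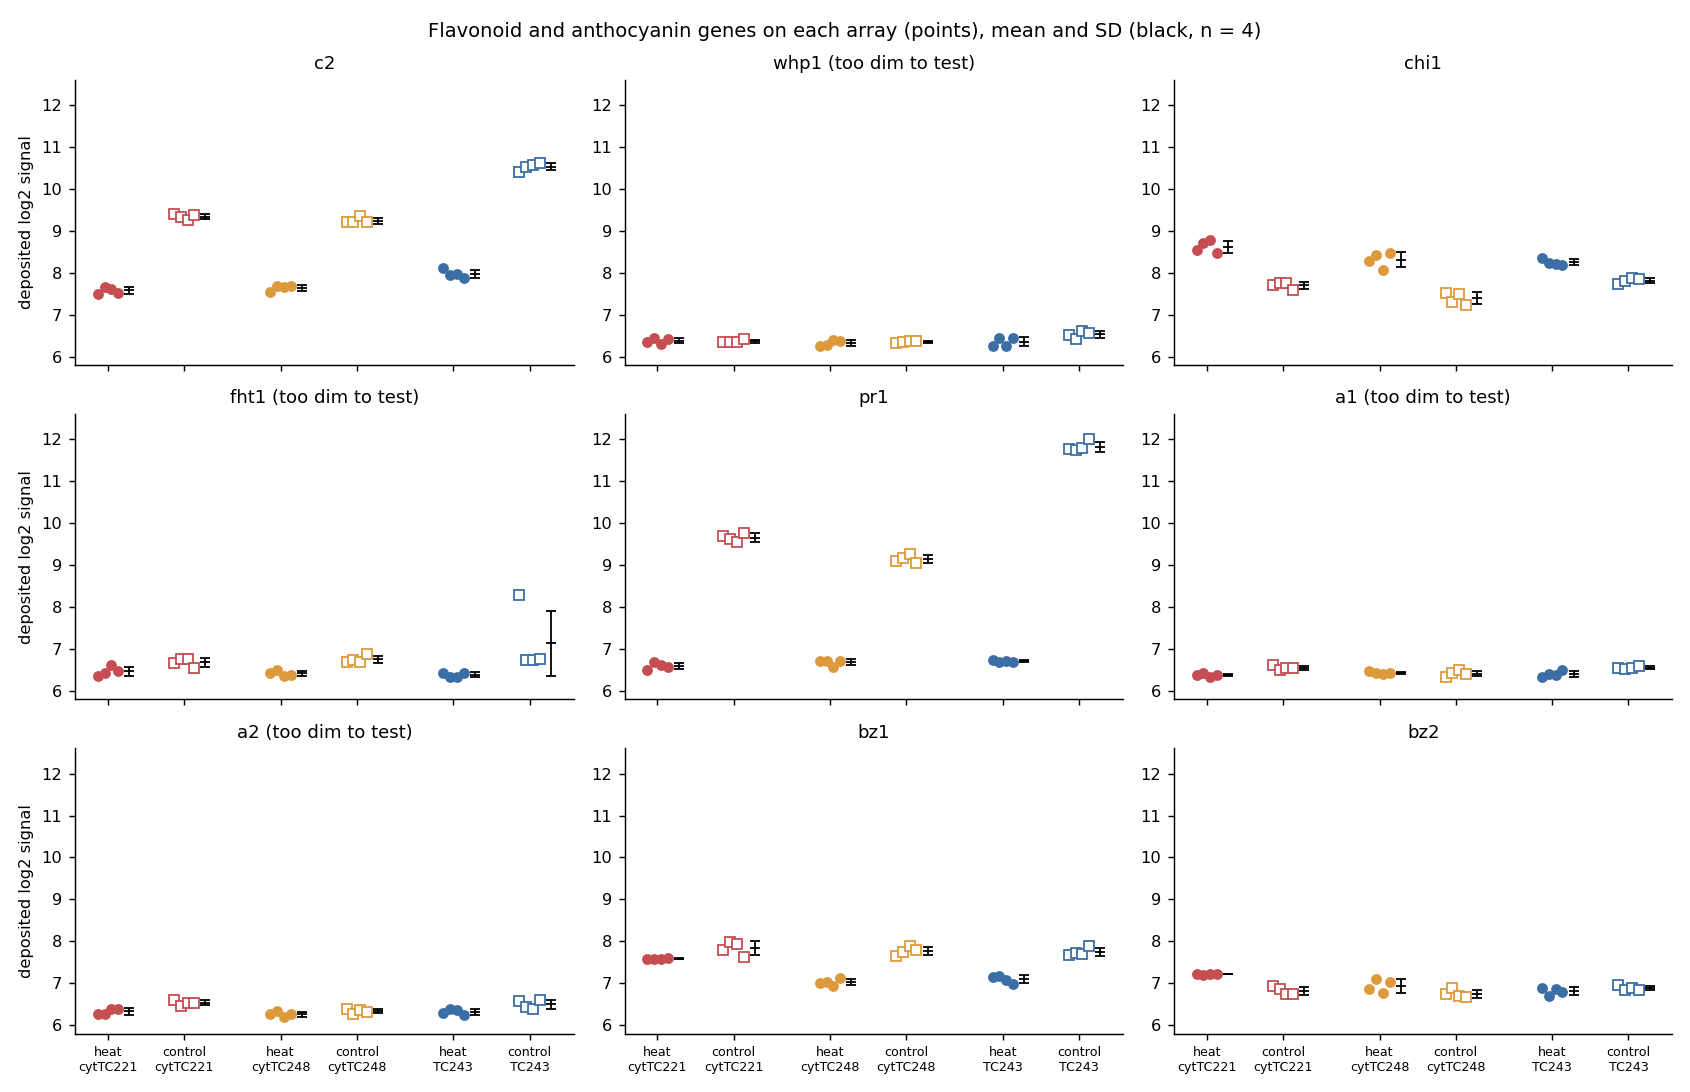
Deposited log2 signal (vertical axis) of the 9 genes on each of the 24 arrays, with heat (filled circles) left of control (open squares) in each line, and the mean and SD of the 4 arrays in black beside the points. The signal of c2 and pr1 was highest in TC243 control and low on all heated arrays, and whp1, a1 and a2 stayed between 6.19 and 6.61 on every array.

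c2 codes for chalcone synthase, the enzyme that commits phenylpropanoids to flavonoids. In cytTC221 its 4 heated arrays had 7.50, 7.67, 7.62 and 7.52, against 9.4, 9.33, 9.25 and 9.38 on the control arrays. In cytTC248 the heated arrays had 7.53, 7.69, 7.67 and 7.68, against 9.20, 9.21, 9.35 and 9.20 without stress. In TC243 they had 8.11, 7.95, 7.97 and 7.87 after heat, against 10.41, 10.51, 10.57 and 10.62. Heated and control arrays did not overlap in any line, and the control arrays of TC243 stood above those of both other lines. The heat response of c2 was -1.76 (SE 0.060, adjusted p = 1.72e-17) in cytTC221, -1.60 (SE 0.060, adjusted p = 9.89e-17) in cytTC248 and -2.55 (SE 0.060, adjusted p = 1.73e-20) in TC243 on the log2 scale, which is a 3.4-fold, 3.02-fold and 5.86-fold decrease. Its 3 probes, made to different transcripts of the gene, fell alike, with responses of -1.85 to -1.69 in cytTC221, -1.74 to -1.52 in cytTC248 and -2.71 to -2.44 in TC243. On the 2 slides that held both treatments of a line, c2 differed by -1.67 and -1.63 in cytTC221, by -1.68 and -1.52 in cytTC248 and by -2.30 and -2.71 in TC243.

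The second chalcone synthase gene, whp1, known for its role in pollen flavonols, gave no such signal. Its single probe, spotted in duplicate, was not well above background with both spots on any of the 24 arrays, and with at least 1 spot on 1 control array of TC243. Group means were 6.38 in heated and 6.37 in control cytTC221, 6.33 in heated and 6.36 in control cytTC248, and 6.35 in heated and 6.53 in control TC243. The proteins of c2 and whp1 are very similar, the probe sequences were not used here, and whether the c2 probes also bind whp1 transcripts was not tested.

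pr1 codes for flavonoid 3′-hydroxylase, which adds the hydroxyl group that separates purple cyanidin-type from red pelargonidin-type pigments, and which also acts on the way to maysin. Its probe, spotted in duplicate, gave 6.51, 6.68, 6.63 and 6.58 on the heated cytTC221 arrays, against 9.70, 9.62, 9.54 and 9.77 on the control arrays. In cytTC248 it gave 6.72, 6.72, 6.58 and 6.72 after heat, against 9.09, 9.18, 9.26 and 9.04. In TC243 it gave 6.75, 6.70, 6.72 and 6.68 after heat, against 11.76, 11.74, 11.8 and 12. All 12 heated arrays lay close to the array median, and the 12 control arrays ordered the lines without overlap, with TC243 on top, cytTC221 next and cytTC248 lowest.

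The response of pr1 to heat was -3.06 (SE 0.063, adjusted p = 1.87e-21) in cytTC221, -2.46 (SE 0.063, adjusted p = 7.90e-20) in cytTC248 and -5.11 (SE 0.063, adjusted p = 2.92e-25) in TC243. After heat both spots of the probe were well above background on 0, 1 and 1 of the 4 arrays of cytTC221, cytTC248 and TC243. At least 1 spot was on 1, 2 and 4 arrays in the same lines. The filter asked for both spots, so that pr1 entered the test only through control groups and a fall was the likely outcome. For cytTC221 the size of the fall is thus a limit, with pr1 at least 8.31-fold lower after heat, where the heated level is set, per array, to the lowest signal that passed the flag unless the probe itself read higher. In the other lines the fitted ratio was 5.50-fold in cytTC248 and 34.6-fold in TC243, and the level after heat was measured with both spots on 1 array of 4. With the scanner's own background-subtracted signal the fall of pr1 was larger, at -5.46 in cytTC221, -4.70 in cytTC248 and -7.10 in TC243, with the same order of the lines.

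chi1, which codes for chalcone isomerase, the step between the enzymes of c2 and fht1, moved the other way. Its 2 probes averaged 8.54, 8.70, 8.78 and 8.46 on the heated cytTC221 arrays, against 7.72, 7.76, 7.76 and 7.58 without stress. In cytTC248 the values were 8.29, 8.43, 8.07 and 8.46 after heat, against 7.52, 7.31, 7.50 and 7.24. In TC243 they were 8.35, 8.24, 8.22 and 8.18 after heat, against 7.73, 7.80, 7.88 and 7.84. Every heated array was above every control array of its line. chi1 rose by 0.92 (SE 0.084, adjusted p = 1.01e-09) in cytTC221, by 0.92 (SE 0.084, adjusted p = 8.69e-10) in cytTC248 and by 0.43 (SE 0.084, adjusted p = 5.88e-05) in TC243 on the log2 scale. Both probes rose in each line. They differed most in cytTC248, where the probe to transcript T01 rose by 0.64 and the probe to T02 by 1.2.

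**Figure D2:**
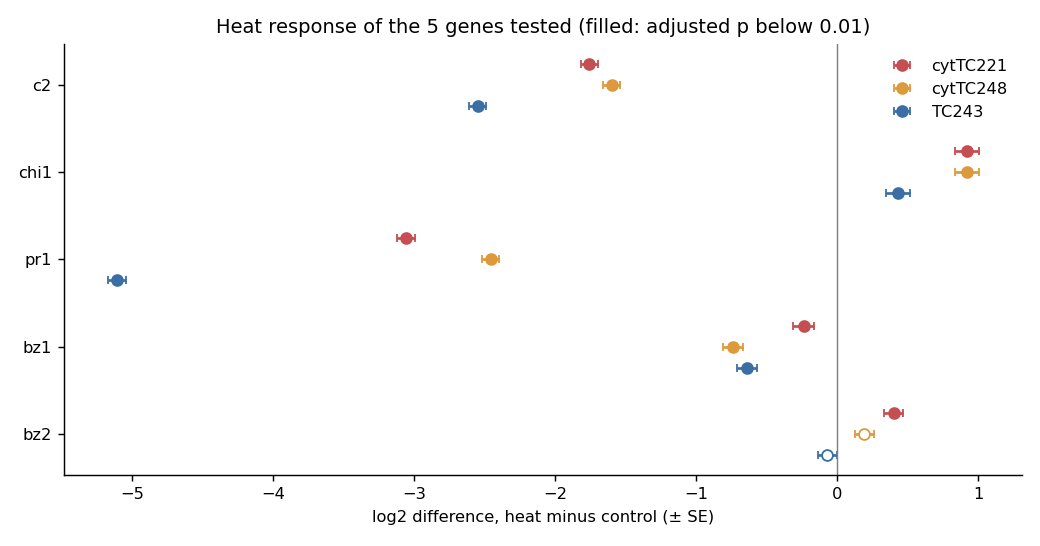
Heat minus control on the log2 scale (horizontal axis, with SE) for the 5 genes tested, in cytTC221, cytTC248 and TC243, with filled points for an adjusted p below 0.01. The points of c2 and pr1 lie to the left of 0 and farthest left in TC243, those of chi1 lie to the right in all 3 lines, and those of bz1 and bz2 lie within 0.74 of 0.

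bz1 codes for the glucosyltransferase that stabilises anthocyanidins, and bz2 for a glutathione S-transferase needed to bring the pigment into the vacuole. bz1 averaged 7.59 ± 0.01 in heated and 7.83 ± 0.16 in control cytTC221, 7.03 ± 0.08 in heated and 7.78 ± 0.11 in control cytTC248, and 7.10 ± 0.09 in heated and 7.74 ± 0.09 in control TC243 (SD, n = 4 each). It fell by 0.74 (SE 0.072, adjusted p = 2.91e-09) in cytTC248 and by 0.64 (SE 0.072, adjusted p = 3.10e-08) in TC243. In cytTC221 its fall was small, at -0.24 (SE 0.072, adjusted p = 0.00423), with the heated arrays between 7.58 and 7.61 and the control arrays between 7.62 and 7.99. This call was lost when control replicate 2 (-0.19, adjusted p = 0.0240) or control replicate 3 (-0.21, adjusted p = 0.0184) of cytTC221 was left out, and neither of its 2 probes passed on its own (adjusted p = 0.0490 and 0.0143).

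Of the 2 probes of bz2 only that to transcript T01 was kept. It had 7.22, 7.21, 7.23 and 7.23 on the heated cytTC221 arrays, against 6.94, 6.87, 6.75 and 6.74 without stress. In cytTC248 it had 6.86, 7.10, 6.76 and 7.03 after heat, against 6.74, 6.89, 6.69 and 6.68, and in TC243 6.90, 6.69, 6.87 and 6.79 after heat, against 6.95, 6.85, 6.89 and 6.85. Only in cytTC221 did the heated arrays all lie above the control arrays. The response was 0.40 (SE 0.068, adjusted p = 1.53e-05) in cytTC221, 0.19 (SE 0.068, adjusted p = 0.0149) in cytTC248 and -0.07 (SE 0.068, adjusted p = 0.325) in TC243. The value in cytTC248 passed the test when control replicate 2 (0.23, adjusted p = 0.00439) or heat replicate 3 (0.25, adjusted p = 0.00201) of that line was left out, and also in the 3 versions made from the scanner signals (0.25 to 1.08). On the slides that held both treatments of cytTC248, bz2 differed by -0.03 and 0.35.

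Between the early enzymes and that of bz1 lie the steps that make anthocyanins as such, and their genes were at the edge of what the arrays measure. a1 codes for dihydroflavonol 4-reductase and a2 for anthocyanidin synthase. None of the probes of a1 or a2 was well above background on a heated array. On control arrays a2 never carried the flag with both of its spots. With at least 1 spot it did on 1 control array of cytTC221 and 1 of TC243. a1 carried the flag on 2 of 4 control arrays of cytTC221, 0 of 4 of cytTC248 and 1 of 4 of TC243. a1 averaged 6.38 in heated and 6.55 in control cytTC221, 6.44 in heated and 6.41 in control cytTC248, and 6.40 in heated and 6.56 in control TC243. a2 averaged 6.33 in heated and 6.54 in control cytTC221, 6.26 in heated and 6.34 in control cytTC248, and 6.33 in heated and 6.50 in control TC243. No fold is given for these genes.

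fht1, the gene of flavanone 3-hydroxylase, was on no heated array well above background with both of its spots, and on 2, 2 and 3 of the 4 control arrays of cytTC221, cytTC248 and TC243. It had 6.36, 6.42, 6.62 and 6.48 on the heated cytTC221 arrays, against 6.66, 6.76, 6.76 and 6.55 without stress. In cytTC248 it had 6.42, 6.50, 6.36 and 6.39 after heat, against 6.69, 6.75, 6.69 and 6.88. In TC243 it had 6.43, 6.34, 6.34 and 6.44 after heat, against 8.29, 6.74, 6.75 and 6.76. The value of 8.29 on the array of control replicate 1 came from 1 of the 2 spots, which read 9.73 where the other read 6.85. Where a probe was counted as well above background with at least 1 of its spots, a rule added after seeing the data, fht1 was tested and fell by 0.75 (adjusted p = 0.00273) in TC243, with -0.21 (adjusted p = 0.376) in cytTC221 and -0.34 (adjusted p = 0.147) in cytTC248. Without that array the response was -0.36 (adjusted p = 2.66e-05) in TC243, -0.21 (adjusted p = 0.00336) in cytTC221 and -0.33 (adjusted p = 2.73e-05) in cytTC248. Under this added rule fht1 entered the test only through control groups, so that a fall was its likely outcome. After background correction of the scanner signals, fht1 had -4.47 in heated and -4.44 in control cytTC221 and -4.18 in heated and -4.45 in control cytTC248, relative to each array's 75th percentile. On that scale the TC243 arrays had -4.52, -4.63, -4.47 and -4.08 after heat, against -2.65, -4.27, -4.27 and -4.48 without stress.

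The design also asks whether the same nucleus behaves differently in another cytoplasm. Without stress, c2 and pr1 were lower in both lines with a foreign cytoplasm than in TC243. pr1 differed by -2.17 (SE 0.063, adjusted p = 7.50e-17) in cytTC221 and by -2.68 (SE 0.063, adjusted p = 3.10e-18) in cytTC248, a 4.5-fold and a 6.42-fold lower level. c2 differed by -1.19 (SE 0.060, adjusted p = 1.04e-12) in cytTC221 and by -1.29 (SE 0.060, adjusted p = 5.27e-13) in cytTC248, a 2.28-fold and a 2.45-fold lower level. Of the 48262 genes tested, 30 were as far below TC243 in cytTC221 as pr1 or farther, and 10 in cytTC248, and for c2 the counts were 159 and 106. Once the table was quantile-normalized over all arrays, which was tried only after seeing the data, the differences were -2.28 and -2.70 for pr1 and -1.29 and -1.30 for c2. On the slides that held control arrays of both lines of a pair, pr1 differed by -2.06 and -2.03 in cytTC221, and by -2.54 to -2.96 on 4 slides in cytTC248.

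Of the 5 genes tested, 2 differed without stress between cytTC221 and TC243, both lower in cytTC221, where 15.0% of all genes tested differed, 4.66% lower and 10.3% higher. Between cytTC248 and TC243 there were 3, all lower in cytTC248, where 11.1% differed, 5.56% lower and 5.51% higher. Between cytTC221 and cytTC248 there was 1, higher in cytTC221, where 11.5% differed, 3.30% lower and 8.24% higher. The third gene that differed between cytTC248 and TC243 was chi1, at -0.42 (SE 0.084, adjusted p = 9.04e-04), or -0.40 (adjusted p = 0.00147) with the table normalized over all arrays. Between cytTC221 and cytTC248 only pr1 passed, at 0.51 (SE 0.063, adjusted p = 2.17e-06), or 0.42 after the joint normalization, while with the scanner's processed signal it was 0.37 (adjusted p = 0.279). c2 differed between these lines by 0.10 (adjusted p = 0.286). chi1 was near the threshold there, at 0.31 (adjusted p = 0.0106). bz1 and bz2 did not pass between any lines without stress, with differences of -0.14 to 0.09.

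After heat the picture was another one. pr1 no longer passed between any of the lines, with -0.11 (adjusted p = 0.141) for cytTC221 minus TC243, -0.03 (adjusted p = 0.803) for cytTC248 minus TC243 and -0.08 (adjusted p = 0.288) for cytTC221 minus cytTC248, at levels where most arrays did not measure it with both spots. With the scanner's processed signal the first of these was -0.78 (adjusted p = 0.00425), and with scanner signals scaled to the 75th percentile the last was -0.44 (adjusted p = 8.00e-04). c2 remained lower in cytTC221 and in cytTC248 than in TC243, at -0.40 (adjusted p = 6.18e-06) and -0.34 (adjusted p = 2.20e-04). The joint normalization gave -0.45 and -0.31, and under the 75th percentile the second was -0.26 (adjusted p = 0.0106). Heated cytTC221 stood out in the other genes. There bz1 was above TC243 by 0.49 (adjusted p = 4.79e-06) and above cytTC248 by 0.56 (adjusted p = 1.31e-06), bz2 by 0.41 (adjusted p = 2.13e-05) and 0.28 (adjusted p = 0.00142), and chi1 by 0.38 (adjusted p = 5.54e-04) and 0.31 (adjusted p = 0.00400). With the joint normalization these were 0.46 and 0.50 for bz1, 0.40 and 0.25 for bz2, and 0.30 and 0.22 for chi1, of which the last no longer passed (adjusted p = 0.0359). Under the 75th percentile bz1 still passed, while bz2 was at 0.29 (adjusted p = 0.0183) and -0.04 (adjusted p = 0.716) and chi1 at 0.20 (adjusted p = 0.0524) and 0.11 (adjusted p = 0.290). The difference of chi1 between cytTC221 and cytTC248 was also lost when heat replicate 2 or 3 of cytTC221 or heat replicate 1 or 3 of cytTC248 was left out (0.23 to 0.30, adjusted p = 0.0114 to 0.0229). Differing after heat were 4 of the 5 genes between cytTC221 and TC243, 3 of them higher in cytTC221, where 48.3% of all genes tested differed (23.0% lower and 25.3% higher). Between cytTC248 and TC243 it was 1, lower in cytTC248, where 18.1% differed (11.9% lower and 6.16% higher). Between cytTC221 and cytTC248 there were 3, all higher in cytTC221, where 39.2% differed (17.1% lower and 22.1% higher). c2 did not pass for this pair, at -0.06 (adjusted p = 0.397). Under the 75th percentile those that passed were bz1, higher in cytTC221, and c2 (-0.33, adjusted p = 4.28e-04) and pr1, both lower. The processed signal also put c2 lower there (-0.32, adjusted p = 0.00123).

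**Figure D3:**
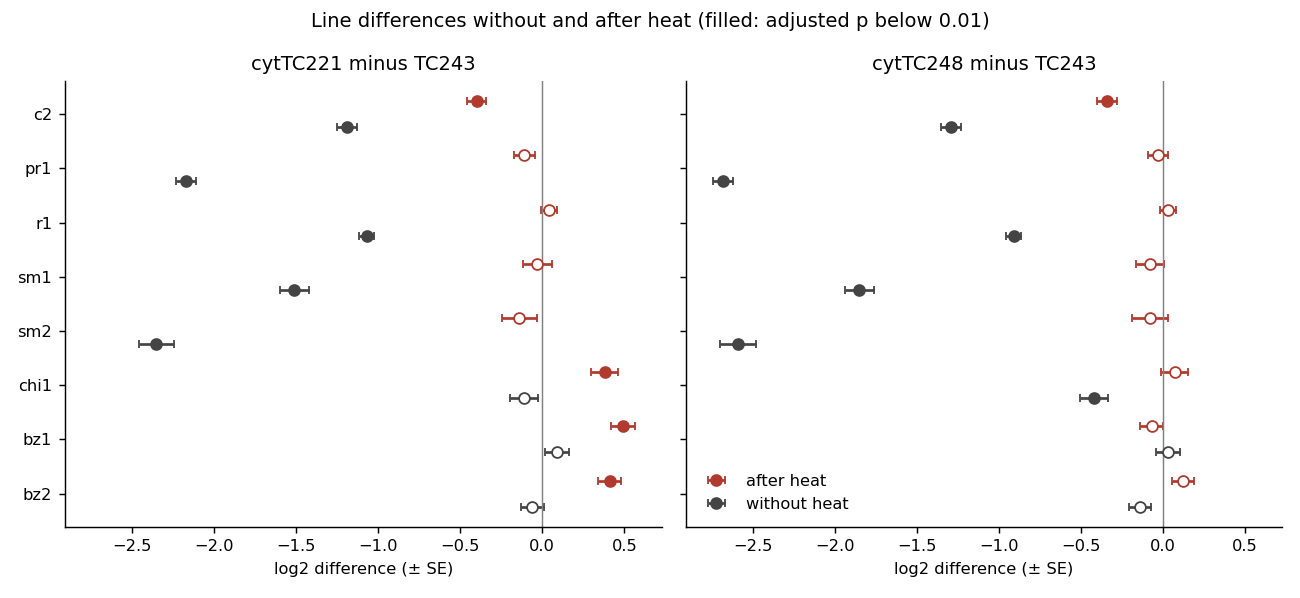
Differences between lines on the log2 scale (horizontal axes, with SE) after heat (red) and without heat (grey), for cytTC221 minus TC243 and cytTC248 minus TC243, with filled points for an adjusted p below 0.01. c2, pr1, r1, sm1 and sm2 were lower than in TC243 without heat in both lines, by 0.91 to 2.68, and after heat c2 still passed the test, while r1 and sm1 were not well above background on any heated array, pr1 with both spots on 2 of 12 and sm2 on 6 of 12.

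The heat response itself differed among the 3 lines for all 5 genes tested, by an F-test on the interaction of line and treatment (adjusted p = 9.06e-09 for c2, 4.55e-15 for pr1, 0.00146 for chi1, 6.35e-04 for bz1 and 0.00111 for bz2), as it did for 43.8% of all genes tested. Between cytTC221 and TC243 the responses of 5 genes differed (37.4% of all genes tested), between cytTC248 and TC243 those of 3 (14.4%) and between cytTC221 and cytTC248 those of 2 (31.2%). The fall of pr1 was smaller than in TC243 by 2.06 (adjusted p = 9.49e-14) in cytTC221 and by 2.66 (adjusted p = 1.17e-14) in cytTC248, and the responses of cytTC221 and cytTC248 differed by -0.60 (adjusted p = 1.40e-05). As pr1 was well above background with both spots on 0, 1 and 1 of the 4 heated arrays of cytTC221, cytTC248 and TC243, these differences rest on the control levels. The fall of c2 was smaller by 0.79 (adjusted p = 1.08e-07) and 0.95 (adjusted p = 5.06e-08). The difference of pr1 in response is the control difference (-2.17 and -2.68) with its sign turned, less the small heated difference. The rise of chi1 was larger than in TC243 by 0.49 in both lines (adjusted p = 0.00180 in cytTC221 and 0.00436 in cytTC248). The second of these calls was lost without control replicate 3 of TC243, control replicate 2 or 4 of cytTC248 or heat replicate 2 or 4 of cytTC248 (0.44 to 0.46, adjusted p = 0.0106 to 0.0117). bz1 fell less in cytTC221 than in TC243 by 0.40 (adjusted p = 0.00271) and than in cytTC248 by 0.50 (adjusted p = 4.49e-04), and bz2 rose in cytTC221 against TC243 by 0.47 (adjusted p = 3.49e-04). Under the 75th percentile the differences of cytTC221 from TC243 no longer passed for chi1 (0.37, adjusted p = 0.0177), bz1 (0.26, adjusted p = 0.0778) and bz2 (0.39, adjusted p = 0.0319), nor did that of bz1 from cytTC248 (0.19, adjusted p = 0.174). bz1 also failed the F-test there (adjusted p = 0.124). In the same setting bz2 passed for cytTC248 minus TC243 (0.65, adjusted p = 0.00221) and c2 for cytTC221 minus cytTC248 (-0.37, adjusted p = 0.00364).

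The other genes of the pathway were taken from lists of named genes, of which 11 IDs could be matched to the array by symbol, 6 of regulators, 2 of the entry from phenylalanine and 3 of branches and late steps. All 11 were tested. Of the 6 regulator IDs, 5 fell and 1 rose in cytTC221, 6 fell in cytTC248 and 6 fell in TC243, beside the 38.7%, 38.1% and 38.3% of all genes tested that fell in these lines. c1, pl1, r1 and p1 were not well above background on any heated array and entered the test only through control groups. A fall was thus the likely outcome for them, and the count and the median below are a description. With scanner signals scaled to the 75th percentile, where the median of all genes moved by 0.48 in cytTC248, r1 and the pac1 ID GRMZM2G058432 still fell there, and c1 (-0.07, adjusted p = 0.586), pl1 (-0.44, adjusted p = 0.0225), p1 (0.11, adjusted p = 0.407) and the pac1 ID GRMZM2G058292 (0.21, adjusted p = 0.0171) did not pass. Relative to that median the 4 were at -0.55, -0.92, -0.37 and -0.27. The median response of the 6 was -0.55, -0.63 and -0.73 in the same lines, against -0.02, 0.07 and 0.05 over all genes tested. r1 is a bHLH activator of the anthocyanin genes. Its level was 6.38 ± 0.02 in heated and 8.10 ± 0.10 in control cytTC221, 6.37 ± 0.05 in heated and 8.26 ± 0.04 in control cytTC248, and 6.34 ± 0.02 in heated and 9.17 ± 0.06 in control TC243 (SD, n = 4 each). r1 was not well above background on any heated array, so that its falls are limits, with r1 after heat at least 3.09-fold lower in cytTC221 (adjusted p = 2.68e-19), 3.45-fold in cytTC248 (adjusted p = 4.48e-20) and 6.41-fold in TC243 (adjusted p = 3.65e-23). Scaled to the 75th percentile, the limit for r1 in cytTC248 was 2.88-fold.

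pl1, a MYB activator of anthocyanin genes in plant tissues, fell to 6.31, 6.37 and 6.36 in heated cytTC221, cytTC248 and TC243, against 7.45, 7.30 and 7.51 without stress. It too was not well above background on heated arrays, and its falls were at least 2.00-fold (adjusted p = 2.15e-09), 1.78-fold (adjusted p = 5.41e-08) and 2.02-fold (adjusted p = 1.63e-09) in the same lines. On the 75th percentile scale the limit in cytTC248 was 1.3-fold and the call was lost. Its kernel counterpart c1 and the flavone and phlobaphene regulator p1 had group means between 6.96 and 7.34 in the control groups and between 6.41 and 6.54 in the heated groups. The name of pac1, the WD40 partner, stood on a pair of IDs that moved apart. GRMZM2G058292 fell in all 3 lines, with -0.25, -0.29 and -0.44 in cytTC221, cytTC248 and TC243, but passed in none of them under the 75th percentile (-0.13, 0.21 and -0.19, with the sign turned in cytTC248), while GRMZM2G058432 rose by 0.46 (adjusted p = 1.97e-06) in cytTC221 and fell by 0.69 (adjusted p = 3.48e-09) in cytTC248 and by 0.44 (adjusted p = 3.15e-06) in TC243.

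At the entry of the pathway, pal1, a phenylalanine ammonia-lyase gene, fell by 2.90 (adjusted p = 2.09e-12) in cytTC221, by 2.12 (adjusted p = 5.19e-10) in cytTC248 and by 1.77 (adjusted p = 1.02e-08) in TC243. 4cl, a 4-coumarate:CoA ligase gene, rose by 0.87 (adjusted p = 7.25e-15), 0.71 (adjusted p = 2.82e-13) and 0.90 (adjusted p = 3.59e-15) in the same lines. Only 1 of the 3 probes of pal1 was kept, and its SD within a group reached 0.39, in control TC243. The pal family has many similar members, and whether the probe also binds other members was not tested.

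The maysin branch was represented by sm1 and sm2. sm2 codes for the rhamnosyltransferase of maysin synthesis and averaged 6.56 ± 0.07 in heated and 10.36 ± 0.11 in control cytTC221, 6.62 ± 0.05 in heated and 10.12 ± 0.13 in control cytTC248, and 6.70 ± 0.19 in heated and 12.71 ± 0.28 in control TC243 (SD, n = 4 each). Its response was -3.81 (adjusted p = 5.12e-19) in cytTC221, -3.49 (adjusted p = 2.25e-18) in cytTC248 and -6.01 (adjusted p = 1.38e-22) in TC243, and it was well above background on 1, 2 and 3 of the 4 heated arrays. sm1, which codes for the rhamnose synthase of the same branch, averaged 6.35 in heated and 7.62 in control cytTC221, 6.31 in heated and 7.29 in control cytTC248, and 6.39 in heated and 9.14 in control TC243. It was not well above background on any heated array and fell at least 2.24-fold (adjusted p = 6.71e-12), 1.76-fold (adjusted p = 6.25e-10) and 6.25-fold (adjusted p = 3.59e-18) in the same lines. Both sm1 and sm2 entered the test only through control groups, so that a fall was the likely outcome for them. For sm1 in cytTC248 the limit on the 75th percentile scale was only 1.3-fold, where the fall still passed (adjusted p = 0.00179). mrp4, an ABC transporter of the vacuole known for phytic acid, was the third gene of this list. It was well above background on all 4 heated TC243 arrays and on no array of the other groups, and was tested only through that group. Its values in cytTC221 and cytTC248 thus compare groups in which it was not measured. It had -0.26 (adjusted p = 0.0671) in cytTC221, 0.04 (adjusted p = 0.781) in cytTC248 and 0.47 (adjusted p = 0.00177) in TC243, and under the 75th percentile it also passed in cytTC248 (0.71, adjusted p = 7.71e-04). The difference between the responses of cytTC248 and TC243 did not pass (-0.43, adjusted p = 0.0864).

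**Figure D4:**
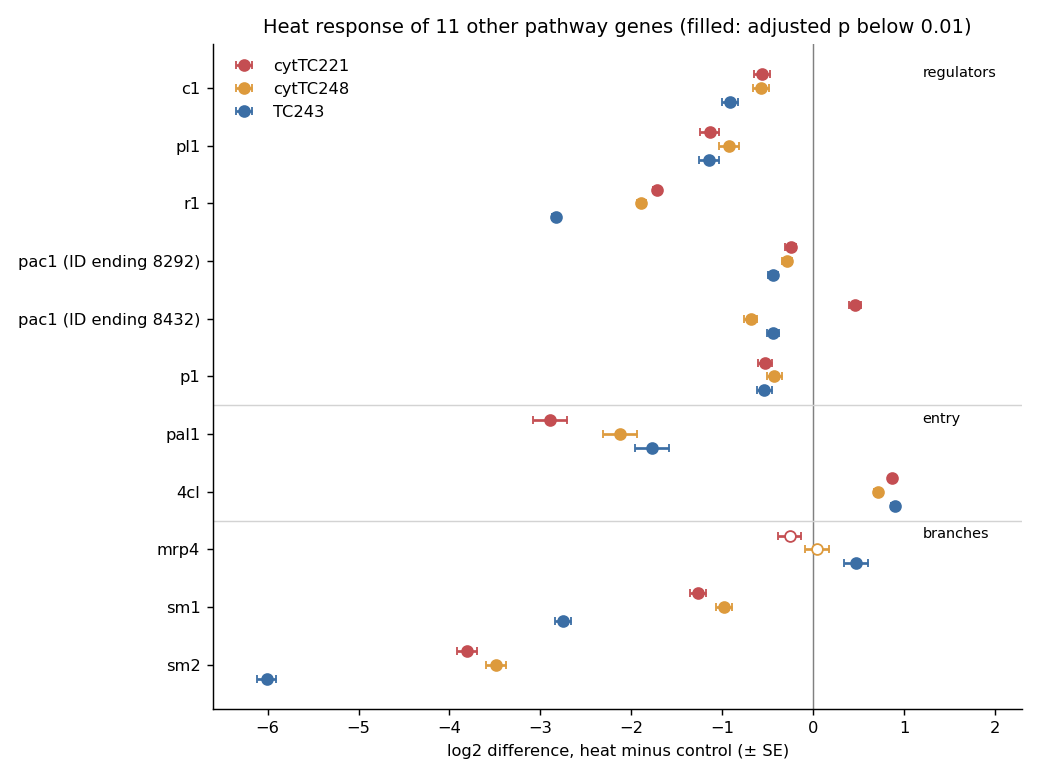
Heat minus control on the log2 scale (horizontal axis, with SE) for the 11 other pathway genes in cytTC221, cytTC248 and TC243, with filled points for an adjusted p below 0.01. r1, sm1 and sm2 lie farther to the left in TC243 than in the other lines, pal1 lies farthest left in cytTC221, and 4cl lies to the right of 0 in all 3 lines.

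Without stress, r1, sm1 and sm2 were also lower in cytTC221 and cytTC248 than in TC243. sm2 differed by -2.35 (adjusted p = 1.85e-13) in cytTC221 and by -2.59 (adjusted p = 6.51e-14) in cytTC248, sm1 by -1.51 (adjusted p = 9.07e-12) and -1.85 (adjusted p = 5.94e-13), and r1 by -1.07 (adjusted p = 7.56e-14) and -0.91 (adjusted p = 2.46e-12). With the table normalized over all arrays the values were -2.45 and -2.61 for sm2, -1.58 and -1.86 for sm1, and -1.16 and -0.92 for r1. The pac1 ID GRMZM2G058432 was higher than in TC243, by 0.27 (adjusted p = 0.00597) in cytTC221 and by 0.28 (adjusted p = 0.00471) in cytTC248, of which the first did not pass after the joint normalization (0.21, adjusted p = 0.0371). c1, pl1 and p1 did not pass between these lines without stress, at -0.28 and -0.28 for c1 (adjusted p = 0.0214 and 0.0307), -0.06 and -0.21 for pl1 (adjusted p = 0.807 and 0.221) and 0.09 and -0.02 for p1 (adjusted p = 0.558 and 0.910). pal1 did not pass either, at -0.19 (adjusted p = 0.572) and -0.49 (adjusted p = 0.0773).

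Over the 24 arrays c2 and pr1 followed each other, with a Pearson r of 0.99. The groups make most of this, and after the group means were subtracted r was 0.65, the highest of the 10 pairs among the 5 genes tested. The other pairs had r between 0.11 and 0.46 after this step. These arrays share scan and normalization, and the values are a description. Over all arrays chi1 ran against c2 (r = -0.74) and pr1 (r = -0.70) and with bz2 (r = 0.73). The named genes outside the lists that were most like the mean of the 5 standardised profiles were CesA-6 (GRMZM2G113137, a cellulose synthase, r = 0.916 over 24 arrays), pk8-a (GRMZM2G010953, r = 0.865) and AUX35 (GRMZM2G167794, r = 0.850). Their heat responses were 0.11, 0.04 and -0.08 in cytTC221, -0.22, -0.50 and -0.22 in cytTC248 and -0.96, -0.86 and -0.69 in TC243. The mean joins genes that moved in opposite directions, and it is not the profile of any single one of them.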

How the data were processed

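Leaves and stems of maize seedlings of 6 groups were profiled on 24 one-colour Agilent arrays (6 slides of 4). The authors scanned them with Agilent Feature Extraction, version 11, and deposited spot intensities (median signal, local background, processed signal) on a linear scale and 1 table of log2 values. Set against the scanner values, the deposited log2 table holds the log2 of the median signal without background subtraction, quantile-normalized within each line's 8 arrays; its scale and centring follow from that comparison, and the methods do not state them. Duplicate spots were averaged to 133671 probes, of which 64521 carried the well-above-background flag on every array of some group, and probes were averaged to 48262 gene IDs. The 261 spot values flagged as outliers were left out. limma 3.58.1 (R 4.3.3) was fitted once to all groups, with contrasts for heat within a line, for lines within a treatment and for their interaction, and Benjamini-Hochberg adjustment over all genes tested. The fit was tested on simulated data.

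Alternatives were scanner signals with normexp correction (offset 50) scaled to the 75th percentile or by quantiles, the processed signal, centring on the median gene, quantile normalization over all arrays, other probe filters, the brightest probe, slide or replicate number as a block, within-slide values, 1 line at a time, each array left out and a threshold of 0.05. The genes and lists were chosen with earlier results of these data known. Named were all 9 genes with their probes, per list the 2 largest rises and 2 largest falls among genes called alike in all lines, and the 3 named genes most like the set; c1, p1, pac1 and mrp4 were named after their values were seen. List entries defined by gene description could not be looked up, so that only symbols were used. Same-numbered replicates did not deviate together (mean r of 0.003, from -0.181 to 0.269, over 60 pairs), so the number was not used as a pairing. Control arrays sat at odd and heat arrays at even slide positions in cytTC221 and TC243 and the reverse in cytTC248, so that position and treatment cannot be told apart within a line.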

Additional observations from a re-analysis of the deposited data

Results flagged for a closer look

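On single arrays, 5 of 54 combinations of gene and group held a value that stood apart from the other 3 replicates by most of the group's range (Dixon's criterion), where chance alone flags about 1 group in 20. These were c2 in cytTC248 heat replicate 1 (7.53) and in cytTC248 control replicate 3 (9.35), pr1 in cytTC248 heat replicate 3 (6.58), bz1 in cytTC221 heat replicate 4 (7.61) and fht1 in TC243 control replicate 1 (8.29). Only the last was far off in absolute terms, and it rests on 1 of its 2 spots.

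The heat response differed between lines, by a test of the interaction, for these members: c2 by 0.79 (cytTC221 minus TC243) and 0.95 (cytTC248 minus TC243), chi1 by 0.49 and 0.49, pr1 by 2.06 and 2.66, and by -0.60 for cytTC221 minus cytTC248, bz1 by 0.40 (cytTC221 minus TC243) and 0.50 (cytTC221 minus cytTC248), and bz2 by 0.47 (cytTC221 minus TC243). Among the other pathway genes r1 differed by 1.11 and 0.94, sm1 by 1.48 and 1.77 and sm2 by 2.2 and 2.52 for cytTC221 and cytTC248 minus TC243. For cytTC221 minus TC243, pac1 (GRMZM2G058432) differed by 0.90, pal1 by -1.13 and mrp4 by -0.73, and pac1 differed by 1.15 for cytTC221 minus cytTC248. r1 and sm1 were not well above background on any heated array, and pr1 with both of its spots was on 2 of 12. Their differences of response therefore rest on the control levels. mrp4 was well above background only in heated TC243, and its difference rests on the level of that group.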

How the results depend on the processing

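The falls of c2 and pr1, the rise of chi1 in each line and the lower control levels of c2 and pr1 in cytTC221 and cytTC248 than in TC243 kept their direction and passed the test under every alternative that could test them; with probes well above background on all 24 arrays pr1 and bz2 were not tested. Scaling the background-corrected scanner signals to the 75th percentile moved the median of all genes by 0.13 in cytTC221, 0.48 in cytTC248 and 0.27 in TC243 with heat. The rise of bz2 in cytTC248 was 0.86 there and 0.38 relative to that median, and bz2 after heat, cytTC221 minus cytTC248, turned to -0.04 (adjusted p = 0.716). bz1 in cytTC221 was -0.19 (adjusted p = 0.0348). With no filter on dim probes 7 genes fell in TC243 and 5 in cytTC221. The added genes were whp1, fht1, a1 and a2 in TC243 and a1 and a2 in cytTC221. These genes lay at or near background, and the counts are a description. The added responses of whp1, a1 and a2 were -0.20 to -0.15. That of fht1 in TC243 was -0.75 and includes the control array on which 1 of its 2 spots stood apart. Genes up in cytTC248 numbered 2 under each of the 3 scanner settings, with no filter and at a threshold of 0.05. Under the 75th percentile, 2 genes differed in response between cytTC221 and TC243, 2 without heat between cytTC221 and cytTC248, 2 after heat between cytTC221 and TC243 and 0 after heat between cytTC248 and TC243. bz1 did not pass the F-test in that setting, and bz2 passed in response between cytTC248 and TC243. With quantile-normalized scanner signals 1 gene differed after heat between cytTC221 and cytTC248, and with the processed signal 1 differed in response between these lines. With probes above background on all arrays the counts were 1 up in cytTC221, 3 in response between cytTC221 and TC243, 1 between cytTC221 and cytTC248, 3 by the F-test, and without heat 1 and 0 for these pairs. The brightest probe gave 3 in response between cytTC221 and TC243 and 2 without heat between cytTC221 and cytTC248, as did the 0.05 threshold. Of the other pathway genes, 5 fell and 2 rose in cytTC248 under the 75th percentile, and 1 rose in TC243 with arrays centred on the median gene.

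With 1 array left out the counts ranged from 2 to 3 for falls in cytTC221, 1 to 2 for rises in cytTC248, 2 to 3 for responses between cytTC248 and TC243, 1 to 2 without heat and 2 to 3 after heat between cytTC221 and cytTC248, and did not move otherwise: 3 down and 1 up in TC243, 2 up in cytTC221, 3 down in cytTC248, and for the other comparisons between 1 and 5 as in the full fit. The replicate block changed no call of the 5 genes; c2 in TC243 stayed at -2.55. The slide block moved 1 call, bz1 in response between cytTC221 and TC243 (0.34, adjusted p = 0.0158). The number of arrays and the signal over background limit whp1, a1, a2 and fht1, which lay at or near background.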
